A study of Rattus norvegicus with 9 samples.

Results

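The myosin heavy chain isoforms are the motor subunits of the thick filament, and in this series they were read as transcripts in the tibialis anterior, a fast muscle of the rat hindlimb. The 8 genes Myh1, Myh2, Myh3, Myh4, Myh6, Myh7, Myh7b and Myh8 were looked up by symbol in the annotation of the array. Probe sets naming 1 gene were found for 7 of the 8, out of 14506 genes so represented among 29215 probe sets, and Myh8, the perinatal isoform, was not analysed here. Each of the 7 had a single probe set, and 0 probe sets were annotated to several of these myosins. An annotation to 1 gene does not show that the probes read that gene alone. Whether the probes of Myh1, Myh2 and Myh4 also read one another's transcripts, which would enter their ratios, was not tested. Muscle RNA came from 9 young adult male Sprague Dawley rats, 1 array per rat and 3 rats per state. The Fed rats were sampled in the post-absorptive state, the P2 rats during phase 2 of a prolonged fast, when body protein is spared, and the P3 rats during phase 3, when body protein is mobilised. All rats were unmodified and had free access to water, and the fasting phase of a rat was set from its daily rate of body mass loss. Whole muscle was extracted, so a transcript made in fewer fibres and one made at a lower level per fibre cannot be told apart.

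Each muscle fibre builds its thick filaments from 1 or a few of these heavy chains, and the isoform sets how fast the fibre shortens and how much ATP it uses. In rat limb muscle the slow isoform is Myh7, the beta chain shared with the heart. The fast isoforms are Myh2 (type 2A), Myh1 (type 2X) and Myh4 (type 2B), in order of increasing speed. Myh3 is the embryonic isoform, which is replaced after birth in limb muscle and returns in regenerating fibres. Myh6 is the alpha chain of the heart, and Myh7b is an ancient slow-tonic isoform best known from extraocular muscle and muscle spindles.

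On rat chromosome 10 the fast and developmental genes stand in a row in the order Myh3, Myh2, Myh1, Myh4 and Myh8, while Myh6 and Myh7 are neighbours on chromosome 15 and Myh7b lies on chromosome 3. The 250 bases before a transcript start of the first 4 genes are shown, since these neighbours included both the isoform with the greatest change and an isoform with nearly none. The sequences are from RefSeq on build GRCr8, on the plus strand, at chr10:52268935-52269184 for Myh3, chr10:52355489-52355738 for Myh2, chr10:52384662-52384911 for Myh1 and chr10:52421898-52422147 for Myh4. Each start is the transcript start of the RefSeq promoter table, which is the first annotated base of the gene for Myh3, Myh2 and Myh4 but lies 102 bases inside the annotated gene for Myh1. Capitals mark TATAAA on the strand of the gene and, in the adult fast genes, the longest run of bases that Myh2, Myh1 and Myh4 have in common.
Myh3: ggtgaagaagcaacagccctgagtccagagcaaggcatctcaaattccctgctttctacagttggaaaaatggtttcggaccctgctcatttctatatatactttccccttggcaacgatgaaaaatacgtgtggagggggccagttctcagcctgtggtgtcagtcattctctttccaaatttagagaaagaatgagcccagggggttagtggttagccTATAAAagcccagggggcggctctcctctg
Myh2: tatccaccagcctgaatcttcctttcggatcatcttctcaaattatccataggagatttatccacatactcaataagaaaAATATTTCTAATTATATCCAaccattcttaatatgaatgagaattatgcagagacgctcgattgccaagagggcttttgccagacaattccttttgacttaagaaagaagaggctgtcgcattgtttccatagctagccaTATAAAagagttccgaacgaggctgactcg
Myh1: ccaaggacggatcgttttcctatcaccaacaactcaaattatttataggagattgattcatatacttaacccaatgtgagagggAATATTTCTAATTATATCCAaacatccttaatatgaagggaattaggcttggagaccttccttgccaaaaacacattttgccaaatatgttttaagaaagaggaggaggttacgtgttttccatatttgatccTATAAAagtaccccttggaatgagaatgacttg
Myh4: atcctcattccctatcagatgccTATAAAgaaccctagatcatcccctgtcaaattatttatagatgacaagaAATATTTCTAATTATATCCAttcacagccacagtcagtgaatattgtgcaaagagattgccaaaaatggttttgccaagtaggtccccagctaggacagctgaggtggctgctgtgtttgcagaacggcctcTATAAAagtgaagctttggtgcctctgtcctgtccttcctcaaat

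The common run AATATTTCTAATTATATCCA, of 20 bases, began 170, 166 and 177 bases before these starts of Myh2, Myh1 and Myh4. Searched on both strands, it was found in 5 of 33469 promoter windows of the same length (0.0149%). The 2 windows beyond these genes belong to LOC102555216, on the minus strand of chromosome 10. The window of Myh3 did not hold these letters. A TATAAA, present on either strand in 12.9% of all windows, lay 30 bases before this start in Myh3 and Myh2, 33 bases in Myh1 and 45 bases in Myh4, where a further one lay 227 bases before it. The windows of Myh6, Myh7 and Myh7b in the same table belong to transcripts that start 1966, 1657 and 21129 bases inside the annotated genes. An MCAT element (CATTCC, 12.1% of windows) was found in the windows of Myh1, Myh4 and Myh6. The E box CANNTG, bound by myogenic factors, was found in those of Myh3, Myh4, Myh6, Myh7 and Myh7b, against 65.5% of all windows. These matches are descriptions of the letters only.

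The arrays were alike in scale, with medians between 5.80 and 5.90 on the log2 scale, and correlated at 0.987 to 0.994 within states and 0.957 to 0.987 between them over all probe sets. Skeletal muscle was borne out as the tissue by Acta1, the skeletal actin, and Ckm, the muscle creatine kinase, which stood above 99.9932% and 99.8682% of probe sets in every rat. No array date or other batch was given. A call below is an adjusted p under 0.05 in limma's test over all probe sets, and a fold change is a difference of mean log2 intensity. By that rule 9.28% of probe sets were called in P2 versus Fed (5.13% higher, 4.15% lower) and 29.2% in P3 versus Fed (15.8% higher, 13.4% lower), and P3 differed from P2 in 16.0% (8.5% higher, 7.52% lower).

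Among the 7 measured isoforms, 2 of 7 were called in P2 versus Fed, against 9.28% of all probe sets, and 4 of 7 in P3 versus Fed, against 29.2%. Both P2 calls, Myh3 and Myh7, were decreases, as were the 4 P3 calls, Myh3, Myh7, Myh6 and Myh7b. Of all probe sets, 4.15% were called lower in P2 and 13.4% in P3. In P3 versus P2, 0 of 7 were called by limma, against 16.0% of all probe sets. The unmoderated test of the methods also called 0 of 7, and 0 reached an unadjusted p under 0.05 in limma. Across the 3 states together the F test called Myh3, Myh7 and Myh6, or 3 of 7, against 26.2% of all probe sets. In 5 of 7, namely Myh2, Myh3, Myh6, Myh7 and Myh7b, every P2 rat and every P3 rat was below every Fed rat. Of all probe sets, 10.9% were lower without overlap in P2 and 20.1% in P3. The comparisons with Fed share the same 3 Fed rats.

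**Figure D1:**
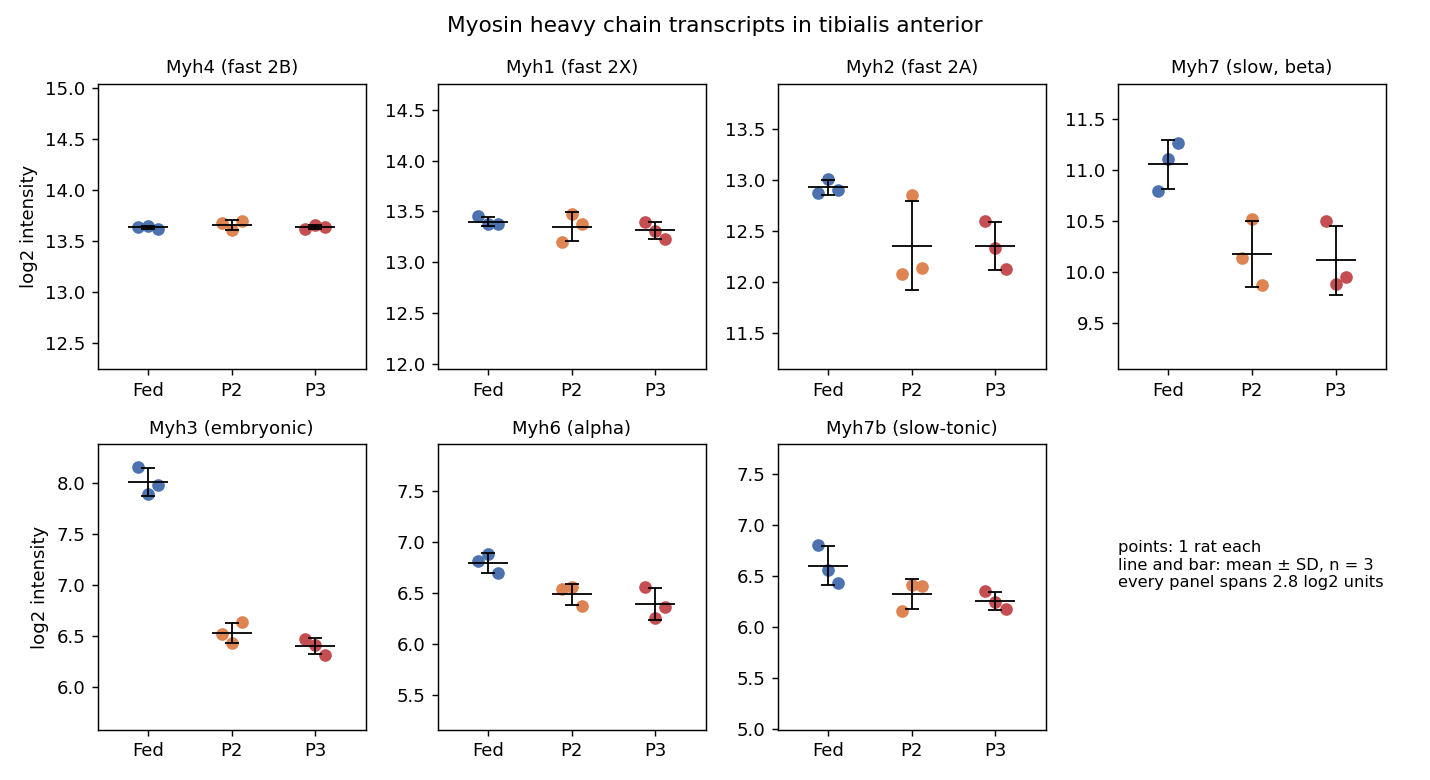
Log2 intensity of each measured myosin heavy chain in the tibialis anterior of Fed, P2 and P3 rats. Points are single rats, the horizontal line and bar are the mean ± SD of 3 rats, and every panel spans the same range of log2 units. Myh3 shows the widest gap between the 6 fasted rats and the 3 Fed rats, Myh7 and Myh2 are lower and more scattered in fasted rats, and Myh4 and Myh1 lie level.

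Myh4, the fastest and in rat tibialis anterior the typical isoform of the superficial fibres, had log2 intensities of 13.64, 13.65 and 13.61 in Fed rats, 13.67, 13.60 and 13.70 in P2 rats and 13.62, 13.66 and 13.64 in P3 rats. The states overlapped fully, and the whole range over 9 rats was under that of any other isoform. Its log2 fold change was 0.03 in P2 (95% interval -0.11 to 0.16, adjusted p = 0.858) and 0.01 in P3 (-0.13 to 0.14, adjusted p = 0.95).

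Myh1, the 2X isoform of intermediate fast fibres, had 13.45, 13.37 and 13.37 in Fed rats, 13.20, 13.48 and 13.37 in P2 rats and 13.40, 13.31 and 13.23 in P3 rats. The highest and the lowest of the 9 values were both in P2 rats. The log2 fold change was -0.05 in P2 (-0.25 to 0.15, adjusted p = 0.798) and -0.09 in P3 (-0.28 to 0.11, adjusted p = 0.521).

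Myh2, the 2A isoform of fast oxidative fibres, had 12.88, 13.02 and 12.90 in Fed rats, 12.08, 12.86 and 12.14 in P2 rats and 12.60, 12.33 and 12.13 in P3 rats. All 6 fasted rats were below the Fed rats, but P2 rat 2 came within 0.016 of the lowest of them, and the P2 rats were more scattered (SD 0.43) than the P3 rats (SD 0.23) and the Fed rats (SD 0.07). The log2 fold change was -0.57 ± 0.20 (SE) in P2 and -0.58 ± 0.20 in P3, that is 0.672 and 0.670 of the Fed level, and neither passed the test, with adjusted p of 0.128 and 0.061. Without P2 rat 2 both were called, at -0.82 in P2 and -0.58 in P3 (adjusted p = 0.0104 and 0.00649).

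The probe sets of the fast isoforms sat at the top of the signal range, above 99.91% of probe sets in every rat for Myh4, above 99.77% for Myh1 and above 99.07% for Myh2, and the brightest probe set of an array read at least 13.87. The 100 brightest probe sets moved less than the rest, with a median absolute log2 fold change of 0.0445 in P2, against 0.122 over all probe sets, and 0.0995 in P3, against 0.181. Of these 100, 4 were called in P2 and 20 in P3, with changes of up to 0.32 and 1.67. The part of the ceiling of the array in the small differences of Myh4 and Myh1 was not tested.

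Myh7, the heavy chain of slow fibres, was at 10.80, 11.11 and 11.26 in Fed rats, 10.14, 10.52 and 9.88 in P2 rats and 10.50, 9.89 and 9.95 in P3 rats. Every fasted rat was below every Fed rat, and the P2 and P3 rats overlapped. The transcript stood at 0.544 of its Fed level in P2 rats, a log2 fold change of -0.88 ± 0.21 (95% interval -1.36 to -0.40, adjusted p = 0.0336), and at 0.521 in P3 rats, or -0.94 ± 0.21 (-1.42 to -0.46, adjusted p = 0.0084). The P3 call was kept without any single rat, with adjusted p between 0.00385 and 0.0376. The P2 call was lost without Fed rat 2 (adjusted p = 0.111), Fed rat 3 (0.117), P2 rat 1 (0.0664), P2 rat 3 (0.117) or P3 rat 3 (0.052).

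Within a fasting state, single rats stood high or low in several adult isoforms at once. P2 rat 2 had the highest Myh1, Myh2 and Myh7 of the P2 rats and the lowest Myh4. P3 rat 1 had the highest Myh1, Myh2 and Myh7 of the P3 rats and the lowest Myh4. Myh4 differed little among rats, from 13.60 to 13.70 in P2 and from 13.62 to 13.66 in P3. The collagen gene Col1a1 was also highest of its state in P2 rat 2 (11.69) and P3 rat 1 (9.56). Standing high was thus not particular to the isoforms. These are descriptions of 3 rats per state, with no test.

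**Figure D2:**
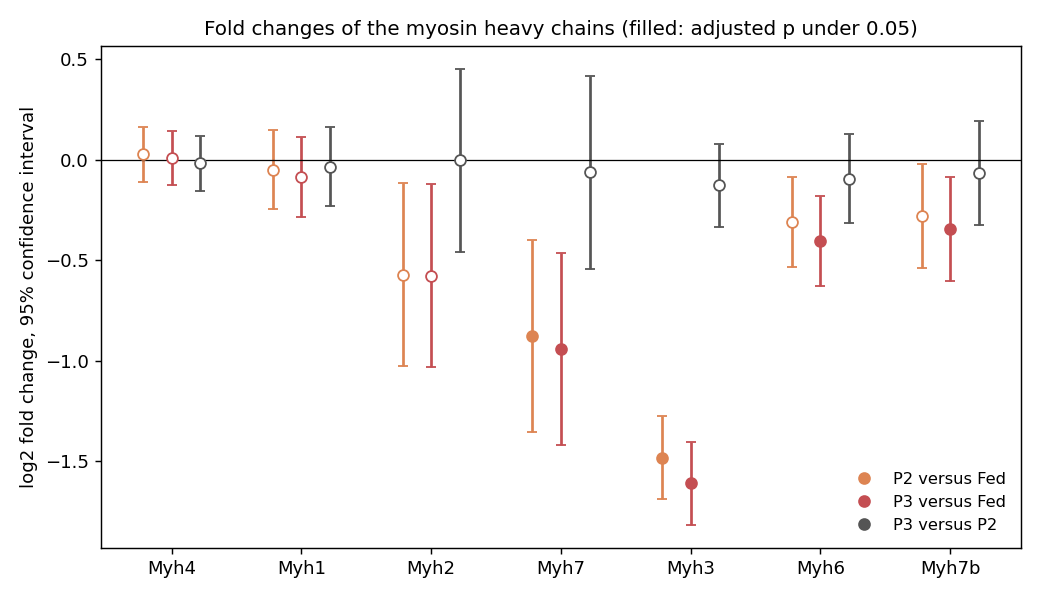
Log2 fold change of each measured myosin heavy chain for the 3 comparisons between states (P2 or P3 over Fed, and P3 over P2), with the 95% confidence interval from the fit to all 9 arrays; filled points have an adjusted p under 0.05. Myh3 and Myh7 lie below 0 in both fasting states, Myh6 and Myh7b are filled in P3 versus Fed alone, and every interval of P3 versus P2 spans 0.

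Myh3, the embryonic isoform, had log2 intensities of 8.15, 7.89 and 7.98 in Fed rats, 6.51, 6.43 and 6.63 in P2 rats and 6.47, 6.41 and 6.31 in P3 rats. The highest fasted rat was 1.26 log2 units below the lowest Fed rat, the clearest separation among the isoforms. P2 rats had 0.358 and P3 rats 0.328 of the Fed level, with 95% intervals of the log2 fold change from -1.69 to -1.28 in P2, at an adjusted p of 7.92e-05, and from -1.82 to -1.40 in P3, at an adjusted p of 2.9e-06. Both calls were kept without any single rat, with adjusted p of at most 0.000828 and 4.01e-05. In the brightness order of the array this probe set stood above 57.7% of probe sets in the rat where it was lowest and 80.4% where it was highest. A detection call for the probe set is not part of the summarised values.

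Myh6, the cardiac alpha chain, had 6.81, 6.88 and 6.69 in Fed rats, 6.54, 6.55 and 6.37 in P2 rats and 6.56, 6.25 and 6.36 in P3 rats. Every fasted rat was below the Fed rats, with a change of -0.40 ± 0.10 in P3 (adjusted p = 0.0129) and of -0.31 ± 0.10 in P2 that did not pass (adjusted p = 0.0935). The P3 call was lost without Fed rat 2 (adjusted p = 0.0521). Myh6 and Myh7 are close paralogs, and whether the probes of Myh6 also read Myh7 transcripts was not tested. Of 6 measured markers of heart muscle, 0 were called in any comparison. The atrial light chain Myl7 was at 6.05 to 6.11 in Fed rats, 6.05 to 6.14 in P2 rats and 6.01 to 6.13 in P3 rats, and the cardiac troponin Tnni3 stood above only 26.5% to 30.1% of probe sets.

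Myh7b, the slow-tonic isoform, had 6.81, 6.56 and 6.43 in Fed rats, 6.15, 6.41 and 6.40 in P2 rats and 6.35, 6.24 and 6.17 in P3 rats. The highest P2 rat and the lowest Fed rat were only 0.026 apart. The change was -0.34 ± 0.11 in P3, with an adjusted p of 0.04997 at the very edge of the threshold, and -0.28 ± 0.11 in P2 (adjusted p = 0.188). Without single rats the P3 value ranged between -0.43 and -0.24, and 7 of the 9 omissions lost the call, with adjusted p as high as 0.148.

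No isoform passed the test between the fasting states. In P3 versus P2 the log2 fold change was -0.13 for Myh3 (95% interval -0.33 to 0.08, adjusted p = 0.467), the isoform with the lowest unadjusted p, 0.197. For Myh7 it was -0.06, but with an interval from -0.54 to 0.41, and for Myh2 it was 0.00 (-0.46 to 0.45), so differences of that size were not detectable with 3 rats per state. Myh4 was bounded more tightly, at -0.02 (-0.15 to 0.12).

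Since probe sets of different genes are not on one scale, the balance between isoforms was read as the log2 ratio of a pair within each rat, minus its mean in Fed rats, for 5 pairs of adult isoforms. Myh7 over Myh4, the slow against the fastest chain, was -0.96, -0.51 and -1.24 in P2 rats and -0.54, -1.19 and -1.11 in P3 rats, with Fed rats between -0.27 and 0.23. Myh2 over Myh1 was -0.65, -0.15 and -0.76 in P2 rats and -0.33, -0.51 and -0.63 in P3 rats, with Fed rats between -0.11 and 0.11. In both pairs no fasted rat overlapped the Fed rats. An exact permutation test of differences among the 3 states ran over 280 divisions of the rats, and its smallest p is 0.00357. This exact permutation test gave p = 0.0393 for Myh7 over Myh4 and 0.0786 for Myh2 over Myh1. Each exact permutation p was 0.196 after adjustment over the 5 pairs, so neither pair passed. The test was across Fed, P2 and P3 together and did not compare fasted rats with Fed rats alone. The Myh4 and Myh1 probe sets of these ratios lie near the top of the signal range, and the part of the ceiling in the ratios was not tested.

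Myh2 over Myh4 changed by -0.60 in P2 and -0.58 in P3 (exact permutation p = 0.164, adjusted p = 0.205), with P2 rat 2 inside the Fed range at -0.04 and the other P2 rats at -0.90 and -0.86. Without that rat, Myh2 over Myh4 and Myh2 over Myh1 passed the exact permutation test, each at an adjusted p of 0.0179, with P2 changes of -0.88 and -0.71. Without any other single rat neither passed, with adjusted p of 0.196 to 0.435 for Myh2 over Myh4 and 0.167 to 0.384 for Myh2 over Myh1. Myh7 over Myh2 changed by -0.31 and -0.36 (p = 0.136, adjusted p = 0.205, exact permutation test). In this pair the P2 rats overlapped the Fed rats. The P3 rats did not, but the highest P3 rat, at -0.22, was close to the lowest Fed rat, at -0.20. Myh1 over Myh4 changed by -0.08 in P2 and -0.09 in P3 (exact permutation p = 0.6).

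**Figure D3:**
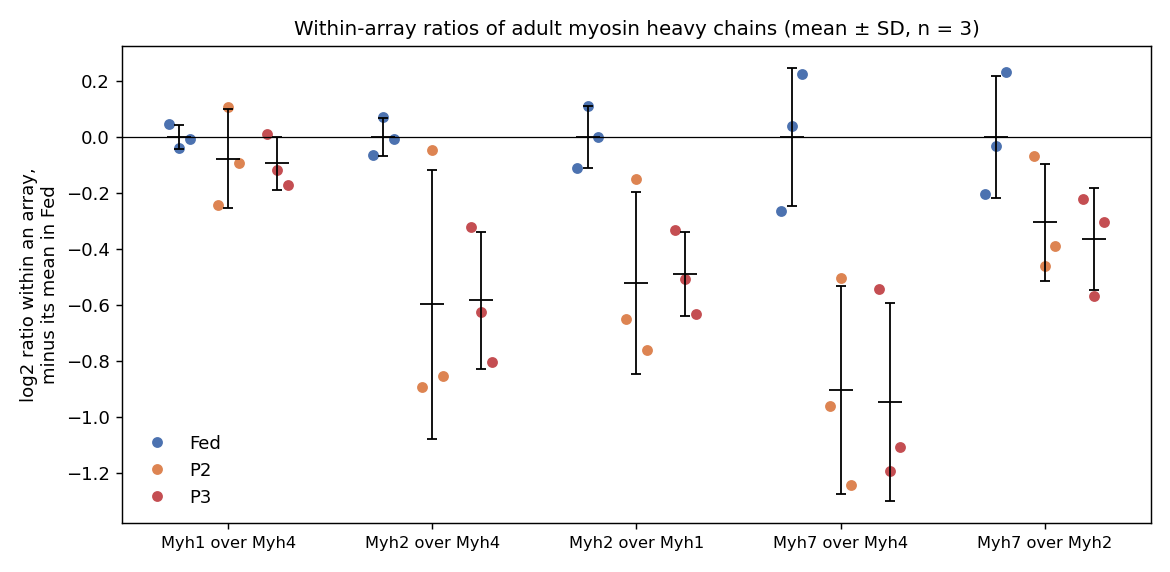
Log2 ratio of 2 adult myosin heavy chains within each array, minus the mean of the ratio in Fed rats, for 5 pairs. Points are single rats in Fed, P2 and P3, and the line and bar are the mean ± SD of 3 rats. Myh7 over Myh4 and Myh2 over Myh1 lie below the Fed rats in all 6 fasted rats, while Myh1 over Myh4 stays around 0.

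The light chains, which wrap the neck of each heavy chain, were described beside them, as were other sarcomere genes of fast and slow fibres. In the lists below, counts stand beside 4.15% of all probe sets called lower in P2 and 13.4% in P3. The shares called higher were 5.13% and 15.8%. Of the slow and cardiac light chains, Myl2 and Myl3 were lower in both fasting states, or 2 of 3 measured, with a median log2 fold change of -0.89 in P2 and -1.74 in P3 over the 3, against 0.01 and 0.00 over all probe sets. Myl2, the slow regulatory light chain, had 9.14, 9.33 and 9.41 in Fed rats, 7.66, 8.46 and 7.38 in P2 rats and 7.04, 6.82 and 7.32 in P3 rats. No fasted rat reached the Fed range. It changed by -1.46 on the log2 scale in P2 and by -2.24 in P3 (adjusted p = 0.00801 and 0.000151). Myl3, the slow essential light chain, changed by -0.89 in P2 (adjusted p = 0.0322), a call lost in 7 of 9 omissions of a rat, and by -1.74 in P3 (adjusted p = 0.000245). It was also lower in P3 than in P2, by -0.85 (adjusted p = 0.024), which was lost without P3 rat 2 or P3 rat 3. Myl7 had 0.01 in P2 and -0.03 in P3.

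Of the 2 measured fast light chain genes, with medians of 0.09 in P2 and -0.20 in P3, Myl1, the fast essential light chain, fell by 0.26 in P3 (adjusted p = 0.0124), and Mylk2, the kinase of the regulatory light chain, had 0.27 in P2 and -0.15 in P3, neither called. Of 9 measured fast sarcomere and calcium genes, 1 was lower in P2 and 5 in P3, with medians of -0.07 and -0.51. Pvalb, the calcium buffer parvalbumin of fast fibres, changed by -0.53 in P2, a call lost without Fed rat 1, Fed rat 3 or P2 rat 3, and by -1.87 in P3 (adjusted p = 2.84e-06). In P3, decreases were also called for Myoz1 (-0.74), a Z-disc protein, Tnni2 (-0.72), the fast inhibitory troponin, and Tpm1 (-0.56), a tropomyosin.

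Of 10 slow sarcomere and calcium genes, 1 was lower in P2 and 4 in P3, with medians of -0.60 and -0.50, and leaving out single rats moved the P2 count up to 3 (without P2 rat 2 or P3 rat 1) and the P3 count between 2 (without Fed rat 3, P3 rat 2 or P3 rat 3) and 6. Casq2, the calsequestrin of slow and cardiac muscle, was the P2 call, with -2.11 in P2 and -3.26 in P3. Tnni1, the slow inhibitory troponin, had 9.53, 9.71 and 10.19 in Fed rats, 8.63, 9.42 and 8.14 in P2 rats and 7.74, 7.21 and 7.59 in P3 rats. P2 rat 2, with high Myh2 and Myh7, was again the highest of its state. In P3, Tnni1 fell by 2.30 (adjusted p = 0.000443), and Tnnc1 and Tnnt1, the slow troponins C and T, changed by -1.04 and -0.96 (adjusted p = 0.0234 and 0.0176), calls that each did not survive 4 of the 9 omissions.

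**Figure D4:**
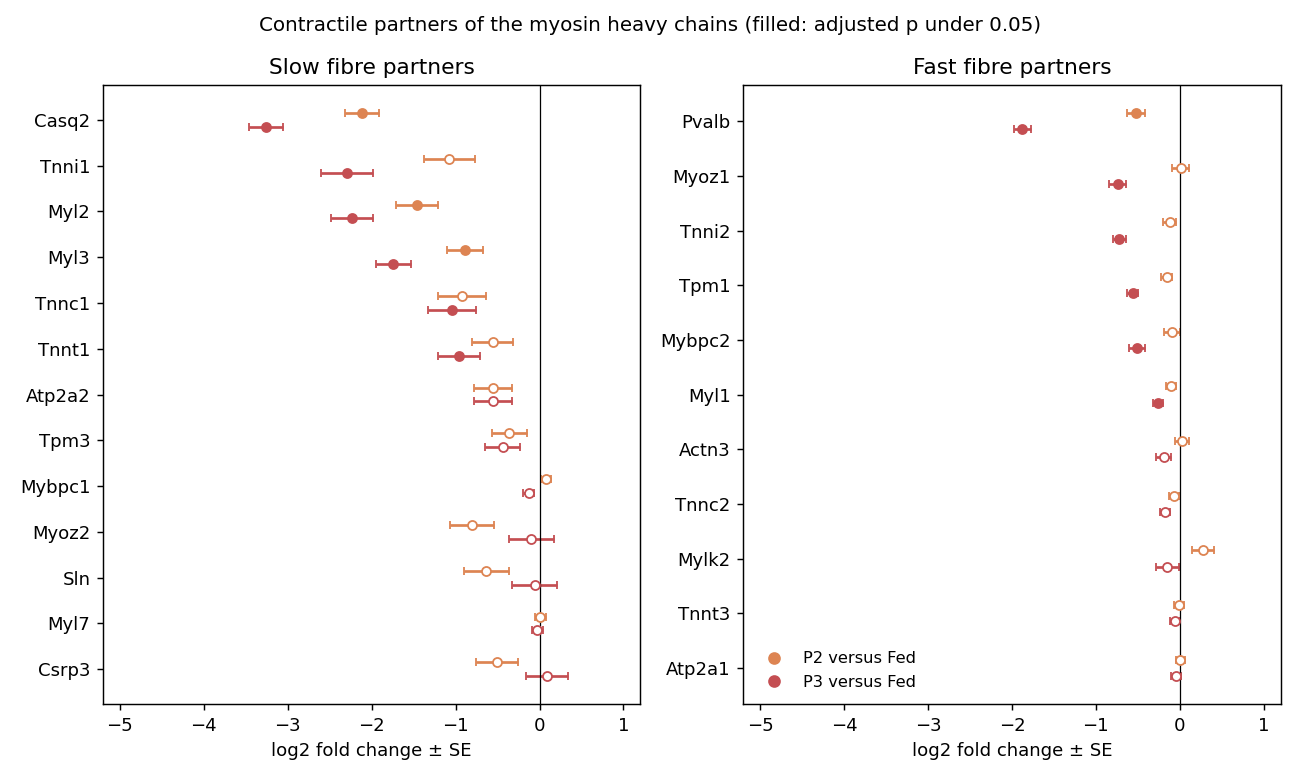
Log2 fold change ± SE of contractile genes of slow fibres (left) and fast fibres (right) in P2 versus Fed and P3 versus Fed; filled points have an adjusted p under 0.05. On the slow side Casq2, Tnni1, Myl2 and Myl3 lie farthest below 0 among the filled P3 points, while Myoz2, Csrp3, Sln and Mybpc1 are near 0 in P3. On the fast side Pvalb lies farthest below 0, Myoz1, Tnni2, Tpm1 and Mybpc2 are also filled in P3, and Atp2a1, Tnnt3 and Tnnc2 stay near 0. The probe sets of Atp2a1, Tnnt3 and Tnnc2 stood above 99.93%, 99.87% and 99.89% of probe sets in every rat. The part of the ceiling of the array in their small changes was not tested.

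Of 4 measured developmental and cardiac sarcomere genes, 2 were lower in both states, with medians of -0.99 in P2 and -1.67 in P3. Mybph, a myosin-binding protein of the thick filament, had 10.98, 10.97 and 11.64 in Fed rats, 10.07, 8.89 and 9.48 in P2 rats and 6.87, 7.14 and 7.09 in P3 rats. The 3 states did not overlap, and Mybph was lower in P3 than in P2, by -2.45 (adjusted p = 0.000442). Actc1, the cardiac actin that fetal skeletal muscle shares, changed by -2.24 in P2, a call lost without Fed rat 3, P2 rat 2 or P2 rat 3, and by -3.18 in P3 (adjusted p = 0.000883), with Fed rats spread from 9.53 to 11.77. The cardiac troponins Tnnt2 (-0.27 in P2 and -0.17 in P3) and Tnni3 (-0.09 in both) were not called.

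Genes that fold, assemble and anchor myosin were partly lower in P3. Of 7 measured folding and assembly genes, 1 was higher and 1 lower in P2, against 5.13% and 4.15% of all probe sets. In P3, 1 was higher and 3 lower, against 15.8% and 13.4%. The medians were 0.03 in P2 and 0.00 in P3. The count lower in P2 was 2 without P3 rat 3, and the count higher in P3 was 2 without Fed rat 1, P2 rat 2 or P3 rat 1. Smyd1, the muscle methyltransferase that binds nascent myosin, changed by -0.81 in P2 and -2.64 in P3 (adjusted p = 0.00238 and 5.11e-07). Unc45b, the chaperone of the myosin motor domain, fell by 0.81 in P3 (adjusted p = 0.0017), with -0.08 in P2, and the small heat shock protein Cryab fell by 1.14 in P3 (adjusted p = 0.0022), with -0.40 in P2. Hsp90ab1 rose by 0.29 in P2, a call lost in 7 of 9 omissions, and by 0.41 in P3 (adjusted p = 0.00198). Unc45a (0.03 and 0.10), Hsp90aa1 (0.06 and 0.00) and Hspb1 (0.31 and 0.83) were not called in P2 or P3.

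Of 6 measured thick filament and M band partners, 2 were higher and 1 lower in P2, and 2 were higher and 3 lower in P3, with medians of 0.05 and -0.37. The list of 6, its P3 count and its medians include Myot, which belongs to the Z-disc. Trim63, the ubiquitin ligase MuRF1 that targets myosin heavy chain, rose by 1.49 in P2 and 2.58 in P3 (adjusted p = 0.000284 and 1.39e-06), and was higher in P3 than in P2 by 1.09 (adjusted p = 0.000448). Its relative Trim54 rose by 0.35 and 0.91, and Trim55 changed by -0.63 and -0.82. The P2 calls of Trim54 and Trim55 were lost in 5 and 7 of 9 omissions. In P3 the M band protein Myom1 changed by -0.67 and the Z-disc protein Myot by -0.62, while titin, Ttn, the ruler of the thick filament, had -0.08 in P2 and -0.11 in P3 and was not called.

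Of 4 other measured heavy chains, non-muscle, smooth muscle and extraocular, 2 changed, in opposite directions, and the medians were -0.05 in P2 and -0.02 in P3. In each state 1 was higher, against 5.13% of all probe sets in P2 and 15.8% in P3. The other was lower, against 4.15% and 13.4%. Myh10, a non-muscle myosin, had 8.54, 8.61 and 8.68 in Fed rats, 6.55, 7.76 and 7.35 in P2 rats and 7.43, 7.38 and 7.57 in P3 rats. All 6 fasted rats were below the Fed rats, with a log2 fold change of -1.39 in P2 and -1.15 in P3 (adjusted p = 0.0097 and 0.0071). Myh14, another non-muscle myosin, had 7.91, 7.97 and 7.80 in Fed rats, 9.04, 8.36 and 8.65 in P2 rats and 8.83, 9.51 and 9.40 in P3 rats. It rose by 0.79 in P2, a call lost in 6 of 9 omissions, and by 1.35 in P3 (adjusted p = 0.000934). The smooth muscle chain Myh11 (-0.12 in P2 and -0.01 in P3) and the extraocular chain Myh13 (0.03 and -0.03), which follows Myh8 on chromosome 10, were not called.

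Of 24 measured regulators of fibre type, 2 were higher and 3 lower in P2, against 5.13% and 4.15% of all probe sets. In P3, 5 were higher and 10 lower, against 15.8% and 13.4%. The medians were -0.02 in P2 and -0.11 in P3. In P2, Rcan1, an inhibitor and target of calcineurin, fell by 1.73 (adjusted p = 0.000269), Thra, the thyroid hormone receptor alpha, fell by 0.66 (adjusted p = 0.0046), and the deacetylase gene Hdac4 rose by 0.77 (adjusted p = 0.00135). Eya2, a cofactor of homeobox factors that drive fast genes, rose by 0.55, but that call was lost in 7 of 9 omissions. In P3, Myod1, the myogenic factor of fast fibres, fell by 3.17 (adjusted p = 8.58e-05), with -0.09 in P2. Ppargc1a, a coactivator of oxidative fibre genes, fell by 1.91 (adjusted p = 1.15e-05), and Nfix, which in the mouse turns the embryonic myosin programme into the fetal one, fell by 1.24 (adjusted p = 0.000215), while Dio2, which activates thyroid hormone, rose by 1.50 (adjusted p = 0.0066). These 4 also differed between P3 and P2, by -3.08, -1.52, -1.09 and 1.71. Dio2 stood low on the array, at 4.62 to 4.96 in Fed rats and 4.39 to 4.74 in P2 rats. Its P3 values spread from 5.64 to 7.17.

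Of 8 measured genes of the denervation response, 0 were higher and 2 lower in P2, against 5.13% and 4.15% of all probe sets. In P3, 1 was higher and 2 lower, against 15.8% and 13.4%. The medians were -0.27 in P2 and -0.07 in P3. Musk (-0.58) and the acetylcholine receptor subunit Chrnb1 (-0.46) were lower in P2, and Chrnb1 (-0.95) and Chrna1 (-1.11) in P3. Runx1 rose by 0.29 in P3, a call lost in 4 of 9 omissions. The embryonic receptor subunit Chrng had 0.00 in P2 and 0.04 in P3, but its probe set stood above only 33.4% to 39.9% of probe sets.

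The pattern over the 9 rats was also compared with 8178 genes of mean log2 intensity of at least 6, by Pearson's r. Most like Myh3 were Tsc22d4 (0.987), Dnm1l (0.986) and Hopx (0.981), most like Myh7 were Nrp2 (0.970), Tnnc1 (0.969) and Pdlim1 (0.967), and most like Myh6 were Cplx2 (0.982), Ndufaf1 (0.972) and Smtn (0.947). The 9 points share the step between Fed and fasted rats, so these r describe likeness over the 3 states.

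Some markers of other cells in the muscle were called as well. Of all probe sets, 4.15% were called lower in P2 and 13.4% in P3, and 5.13% and 15.8% were called higher. For fibro-adipogenic cells, 2 of 6 markers fell in P2, Col3a1 and Cd34, a count of 1 to 3 without single rats and of 1 in 7 of the 9 omissions. In P3, 4 fell, Col1a1, Col3a1, Lum and Cd34. Pdgfra (-0.03 in P2 and -0.39 in P3) and Dcn (0.39 in both) were not called. The log2 of the summed intensity of the 6 markers was between 13.42 and 13.63 in Fed rats, 12.36 and 13.20 in P2 rats and 11.94 and 12.53 in P3 rats. In Fed rats Col1a1, with a mean of 12.46, was the brightest marker in this sum. Of 6 smooth muscle markers, 0 were called in P2 (1 without P3 rat 2) and 4 were lower in P3, or 2 to 5 without single rats (2 without Fed rat 1, Fed rat 3 or P3 rat 2), with sums between 11.94 and 12.24 in Fed rats, 11.72 and 12.08 in P2 rats and 11.30 and 11.68 in P3 rats. Of 5 satellite cell markers, 0 were called in P2 and 2 were lower in P3, or 1 to 3 without single rats (1 without Fed rat 2 or P3 rat 3), with sums of 8.56 to 8.73 in Fed rats, 8.58 to 8.78 in P2 rats and 8.08 to 8.17 in P3 rats. Whether other cells had a part in the falls of Myh3, Myh7, Myh6 and Myh10 was not tested.

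Of 6 adipocyte markers, 3 were higher in P2 (1 without Fed rat 2) and 1 was lower in P3 (0 without Fed rat 1 or Fed rat 3), and their sums were 9.94 to 10.05 in Fed rats, 10.72 to 10.88 in P2 rats and 9.42 to 9.84 in P3 rats. Of the other lists, 1 of 5 endothelial and 1 of 6 macrophage markers were higher in P3, close to the 15.8% of all probe sets called higher. Of 3 Schwann cell markers, 0 were called (1 in P3 without P3 rat 3). Of 6 skeletal muscle markers, 0 were called in P2 and 1 in P3, Mb, the oxygen store myoglobin of oxidative fibres, which fell by 0.81 (adjusted p = 0.0014), while Acta1 had -0.03 in P2 and -0.11 in P3.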

How the data were processed

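RNA of the tibialis anterior of 9 rats was hybridised to Affymetrix Rat Gene 1.0 ST arrays. The deposited log2 values, 1 per probe set and array, were made by the authors with RMA (sketch quantile normalization, median polish) in Affymetrix Expression Console 1.1, and were used as they are. The genome build of the probe annotation is not given in the sources used here. Of 29215 probe sets, 15310 carry 1 gene symbol, and the brightest on average stands for its gene.

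The 3 state means entered 1 limma 3.58.1 fit of all 9 arrays (lmFit, eBayes, 2.87 prior and 6 residual degrees of freedom) in R 4.3.3, with Benjamini-Hochberg adjustment of each comparison over all probe sets. The fit was tested on simulated data. The pair of Myh8 and Myh3 planned among the ratios could not be formed. Values are named for all isoforms, for up to 4 called genes of largest change per list and comparison, for every gene of lists of 7 or fewer measured genes, and for the 3 genes most like each isoform past the F test. The isoforms, lists and alternatives were chosen with earlier results of these data known. The number of arrays limits the precision, and each rat is 1 sample. Promoters were searched with Python 3.11.15, for E box, MCAT, TATA and FOXO-like (TGTTTAC) letters, the last of which, in 3.21% of all windows, had no match at the 8 genes. Figures used matplotlib 3.10.9. Alternatives were a second quantile normalization, subtraction of array medians, array weights, filters, other summaries per gene, a trend in the variance, the groups of a comparison alone, a replicate block, the unmoderated test of the methods and leaving out each rat.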

Additional observations from a re-analysis of the deposited data

How the results depend on the processing

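No call of an isoform changed direction under any alternative run, where 92 refits kept the call and 28 lost it. In P2 versus Fed, array weights called 4 isoforms (Myh2, Myh3, Myh6 and Myh7), the replicate block 1, the unmoderated test of the methods at p under 0.001 called 1 and after Benjamini-Hochberg adjustment 0, and leaving out single rats gave 1 to 3. In P3 versus Fed the test of the methods called 1, before and after adjustment, and leaving out rats gave 2 to 5, with 2 without Fed rat 2. Across the states it called 1 and 1, and leaving out rats gave 1 to 4, with 1 without Fed rat 2. Each of these single calls was Myh3. In P3 versus P2 leaving out rats gave 0 to 0.

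Myh2 in P3 versus Fed was called with array weights (adjusted p = 0.0283), with Fed and P3 alone (0.0125), without P2 rat 1 (0.0482) and with dim probe sets left out, with only probe sets of 1 symbol or with the mean of the probe sets of each gene (0.0400 to 0.0409). Myh7b in P3 lost its call after a second quantile normalization (0.059), after subtraction of medians (0.0655), with an intensity trend and robust moderation (0.0556) and with Fed and P3 alone (0.057).

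Values near 0 changed sign. The second quantile normalization gave Myh1 0.0082 in P3 versus Fed and 0.026 in P3 versus P2, and Myh4 0.019 in P3 versus P2. In P3 versus P2, subtracting medians gave Myh1 0.0025, Myh2 0.034 and Myh4 0.019, and array weights gave Myh2 0.0066 and Myh7 0.035. Leaving out rats gave Myh1 -0.12 to 0.025 in P2 versus Fed, Myh4 -0.0027 to 0.016 in P3 versus Fed and, in P3 versus P2, Myh1 -0.11 to 0.029, Myh2 -0.15 to 0.24, Myh4 -0.046 to 0.00038 and Myh7 -0.26 to 0.11. The cause was not tested.

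Leaving out rats, the ratios minus Fed ranged in P2 and P3 from -0.17 to 0.0069 and -0.15 to -0.05 for Myh1 over Myh4 (0.0069 without P2 rat 1), -0.71 to -0.40 and -0.57 to -0.42 for Myh2 over Myh1, -0.88 to -0.45 and -0.72 to -0.47 for Myh2 over Myh4, -0.42 to -0.19 and -0.47 to -0.25 for Myh7 over Myh2, and -1.10 to -0.73 and -1.15 to -0.83 for Myh7 over Myh4.

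The samples share only a replicate number across states. Same-numbered rats correlated in their deviations from the group means between -0.24 and 0.12, with 2 of 9 pairs over 0.1. Rats of different numbers and states correlated between -0.16 and 0.31. With the number as a replicate block, Myh7 in P2 (adjusted p = 0.077) and Myh7b in P3 (0.0881) were not called. The summarised values hold no background signal, so how far Myh3, Myh6 and Myh7b stood above background in fasted rats could not be read.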
